A study of Rattus norvegicus with 14 samples.

Results

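The 46 genes described here encode the glutathione, thioredoxin and peroxidase enzymes with which a cell removes superoxide, hydrogen peroxide and lipid peroxides, together with NRF2, its inhibitor KEAP1 and enzymes linked to them. They were chosen by name and function. Of the 46, 45 were rows of the count table, which holds 16816 genes, and the expression of Ggt1 is not analysed here. Of the members, 21 also stand in the study's own list of genes related to reactive oxygen species, which it drew up on these libraries.

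RNA-seq was performed on PCCL3 cells, an immortal rat thyroid line that makes thyroglobulin. PPFP cells stably express myc-tagged human PAX8-PPARG fusion protein, the product of a translocation found in thyroid carcinomas, and EV cells carry the empty vector. Both lines were cultured with thyrotropin, insulin and hydrocortisone and received 1 μM pioglitazone, a PPARG agonist, or the DMSO vehicle for 16 hours. Each of the 4 groups had 3 libraries (12 libraries), which the study's methods describe as independent experiments. Each construct was represented by 1 stable line, and whether that line was a clone or a pool is not given in the sources used here, so an effect of PPFP and a difference between the 2 lines cannot be told apart.

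Glutathione peroxidases and peroxiredoxins reduce peroxides, the former with glutathione and the latter mostly with thioredoxin, while superoxide dismutases turn superoxide into hydrogen peroxide and catalase breaks hydrogen peroxide down. Glutathione is made by glutamate-cysteine ligase and glutathione synthetase, returned to its reduced form by glutathione reductase and joined to reactive compounds by glutathione transferases. Thyroid cells produce hydrogen peroxide for the iodination of thyroglobulin and so depend on these enzymes. NRF2 is the transcription factor that raises many of them when oxidants release it from KEAP1, and it binds the antioxidant response element.

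The libraries held 23724703 to 35240176 counts. Pparg, to which reads of the human transgene count as far as they aligned to the rat gene, stood at 1.20 to 2.83 CPM (counts-per-million, scaled by TMM over the 12 libraries) in EV cells and at 46.9 to 61.7 in PPFP cells. The summed level of 8 thyroid markers was between 10021 and 14662 CPM in every library, and 1 of the 8 was higher and 5 lower in PPFP cells without pioglitazone, where 22% of all genes were higher and 23.1% lower. Of the 6 adipocyte markers, Lep and Retn were at 0 counts and 3 were tested without pioglitazone, all 3 higher in PPFP cells, and their summed level was 9.15 to 13.9 CPM in EV cells and 714 to 982 in PPFP cells. The sums did not exceed 1.53 CPM for leukocyte, 1.49 for endothelial and 34.5 for fibroblast markers. The part of these marker differences in the results below was not tested. In PPFP cells with pioglitazone, replicates 2 and 3 were far more alike than any other pair of replicates (chi-square per degree of freedom 1.70, against 17.8 to 113), so they may not be independent samples. The main fits of the members with these libraries were also computed with that pair as 1 sample. Fits with the replicate number as a block and the lists of other genes were not.

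The first question was how the antioxidant genes differ between PPFP cells and EV cells without pioglitazone. More of them were higher than lower in PPFP cells. Ggt6, Gstm2, Mgst2, Akr1c19, Gpx2, Mgst1, Sod1 and Mgst3 were more than 2-fold higher, and Sod3, Prdx5, Ggt7 and Gstp1 were lower by less than 2-fold. With edgeR's quasi-likelihood test and a Benjamini-Hochberg adjusted p under 0.05 over all genes tested, 20 of the 42 members tested were higher (47.6%), against 22% of all genes tested, and 4 were lower (9.52%), against 23.1%. With the further requirement of a 2-fold change, which is the cut-off of the study, 8 members were higher, against 7.27% of all genes, and 0 were lower, against 7.31%. The median log2 fold change of the members was 0.27, and that of all genes tested was 0.0016. Of the members in the study's own list 12 of 21 were higher and 2 lower, which is no independent evidence, and of the 21 tested members outside it 8 were higher (38.1%) and 2 lower, and these too were chosen with earlier results of these data known. In bulk RNA, more cells of a state and more RNA per cell cannot be told apart.

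**Figure D1:**
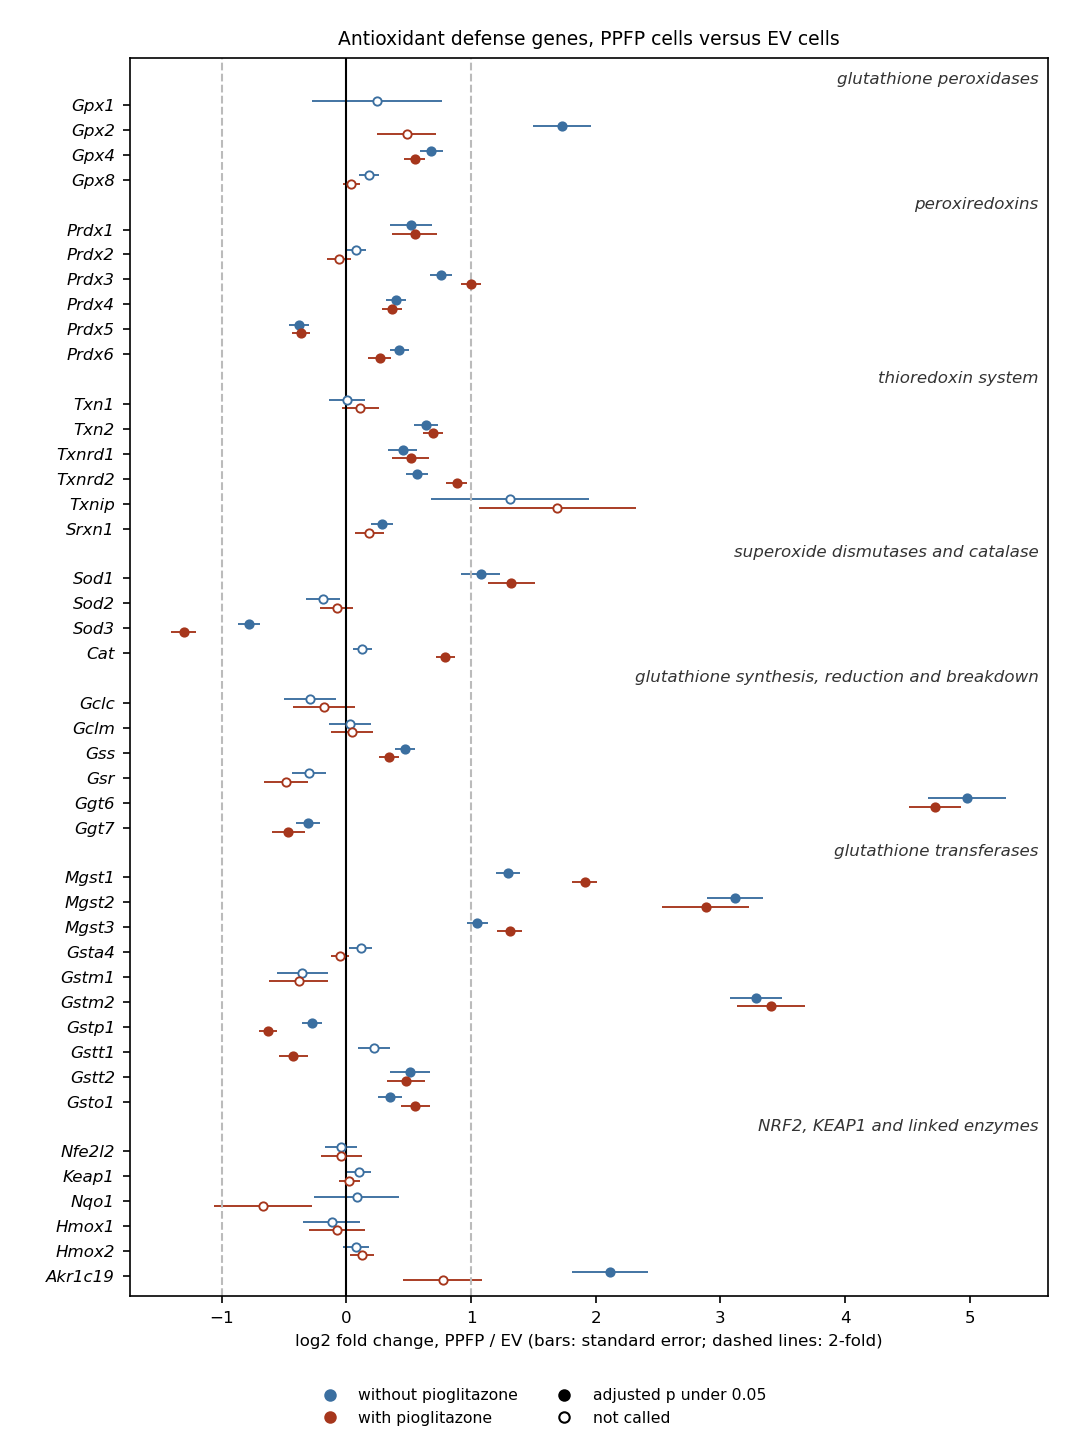
Log2 fold change of each tested member in PPFP cells versus EV cells (horizontal axis), by role, without pioglitazone (blue) and with pioglitazone (red). Bars are standard errors, filled points had an adjusted p under 0.05 and dashed lines mark a 2-fold change. Ggt6, Gstm2 and Mgst2 lie farthest to the right in both comparisons, and Sod3 farthest to the left.

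Among the glutathione peroxidases, Gpx2 and Gpx4 were higher in PPFP cells, Gpx1 and Gpx8 were not called, and Gpx3 and Gpx7 had too few counts to be tested. Gpx2, a glutathione peroxidase best known from the epithelium of the gut, was at 125, 80.5 and 159.9 CPM in the 3 libraries of EV cells and at 452, 359 and 401 CPM in those of PPFP cells. All 3 PPFP libraries lay above all EV libraries, and the fold change was 3.31 (log2 fold change 1.73, SE 0.23, adjusted p = 0.00081). Gpx4, which reduces lipid peroxides within membranes, was at 253, 241 and 291 CPM in EV cells and 431, 409 and 416 CPM in PPFP cells, again without overlap (log2 fold change 0.68, SE 0.092, adjusted p = 0.00084). Gpx8, a peroxidase of the endoplasmic reticulum, had a log2 fold change of 0.18 (adjusted p = 0.11) although its groups did not overlap. Gpx1, the cytosolic peroxidase, gave only 4 to 16 counts per library in these files, and its log2 fold change of 0.25 had a standard error of 0.52. Gpx3, the secreted peroxidase, gave 0, 0 and 1 counts in EV cells and 3, 7 and 7 counts in PPFP cells. Its mean in PPFP cells was 2.22 times a floor of 3 counts per library, and 1 PPFP library was itself at that floor. Gpx7 gave at most 2 counts in any library.

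The promoter of Gpx2 is shown because Gpx2 had the largest change of the members whose promoter held the core of the antioxidant response element, which was searched as TGACNNNGC on both strands. The sequence runs from 250 bases before to 50 after the start of the RefSeq transcript (build GRCr8), and the capitals mark the core, read here on the other strand, from position -13 relative to the start.
Gpx2 promoter: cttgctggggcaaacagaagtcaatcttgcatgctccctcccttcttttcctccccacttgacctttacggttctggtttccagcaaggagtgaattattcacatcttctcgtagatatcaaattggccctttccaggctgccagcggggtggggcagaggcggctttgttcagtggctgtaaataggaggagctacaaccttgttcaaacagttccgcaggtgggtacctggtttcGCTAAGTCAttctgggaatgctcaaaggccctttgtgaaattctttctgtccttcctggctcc

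Of the peroxiredoxins, which reduce peroxides through an active cysteine, Prdx1, Prdx3, Prdx4 and Prdx6 were higher in PPFP cells, Prdx5 was lower and Prdx2 was not called. Prdx3, the mitochondrial member, had the smallest p of the family. It was at 292, 288 and 257 CPM in EV cells and 504, 441 and 471 CPM in PPFP cells, with no overlap (log2 fold change 0.76, SE 0.090, adjusted p = 0.00046). The log2 fold change was 0.52 for Prdx1, the abundant cytosolic member, 0.42 for Prdx6, which also acts as a phospholipase, and 0.40 for Prdx4, a member of the secretory pathway. Prdx5 was at 218, 202 and 231 CPM in EV cells and 169.9, 162 and 169 CPM in PPFP cells and was thus lower in every PPFP library (log2 fold change -0.38, SE 0.081, adjusted p = 0.0070). Prdx2, another cytosolic member, was at 479.9, 407 and 448 CPM in EV cells and 474, 457 and 473 CPM in PPFP cells, values that overlapped (log2 fold change 0.075, adjusted p = 0.51).

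The thioredoxin system had 4 of its 6 members higher and 0 lower in PPFP cells by edgeR's quasi-likelihood test, against 22% and 23.1% of all genes, and both mitochondrial proteins were among the 4. The call of Srxn1 was lost with the replicate block. Txn2, mitochondrial thioredoxin, was at 93.1, 94.2 and 104 CPM in EV cells and 167, 139.8 and 148 CPM in PPFP cells (log2 fold change 0.64, SE 0.095, adjusted p = 0.0012). Txnrd2, the reductase that returns it to its reduced form, was at 26.6, 25.5 and 27.0 CPM in EV cells and 36.8, 40.8 and 39.5 CPM in PPFP cells (log2 fold change 0.57, SE 0.085, adjusted p = 0.0013). Neither gene had overlapping groups. The cytosolic reductase Txnrd1 had a log2 fold change of 0.45 (adjusted p = 0.014) and Srxn1, which repairs overoxidised peroxiredoxins, one of 0.29 (adjusted p = 0.031). Cytosolic thioredoxin Txn1 had a log2 fold change of 0.0061 (adjusted p = 0.98).

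Txnip, the inhibitor of thioredoxin, was at 395, 60.6 and 499 CPM in EV cells and 569, 903 and 900.4 CPM in PPFP cells, so that the groups did not overlap, but it was not called (log2 fold change 1.31, SE 0.64, adjusted p = 0.13). EV replicate 2 stood far below the other EV libraries with vehicle, and the same replicate number did so with pioglitazone, where the values were 374, 72.1 and 519 CPM. The standard error of 0.64 was the largest of the 42 members tested.

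The superoxide dismutases went in different directions. Sod1, the copper-zinc enzyme of the cytosol, was at 291, 217 and 341 CPM in EV cells and 623, 571 and 597 CPM in PPFP cells, a 2.11-fold difference with no overlap (log2 fold change 1.08, SE 0.16, adjusted p = 0.0012). Sod3, the extracellular copper-zinc enzyme, was at 1006, 980.1 and 971 CPM in EV cells and 524, 606 and 595 CPM in PPFP cells and was thus lower in every PPFP library (log2 fold change -0.78, SE 0.087, adjusted p = 0.00034). Sod2, the mitochondrial manganese enzyme, was not called (log2 fold change -0.19, adjusted p = 0.30) and its groups overlapped. Cat, which encodes catalase of the peroxisome, was at 348, 317 and 349.8 CPM in EV cells and 359, 374 and 377 CPM in PPFP cells. These ranges did not overlap, but the difference was small and did not pass the test (log2 fold change 0.13, SE 0.077, adjusted p = 0.21).

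Of the genes that make, reduce or break down glutathione, Ggt6 and Gss were higher, Ggt7 was lower, and Gclc, Gclm and Gsr were not called. Ggt6, a relative of the gamma-glutamyltransferase that splits extracellular glutathione, was at 1.69, 0.637 and 0.800 CPM in EV cells, which came from 50, 19 and 24 counts, and at 38.1, 30.7 and 30.0 CPM in PPFP cells, a 31.5-fold difference (log2 fold change 4.98, SE 0.31, adjusted p = 2.2e-05). It was the largest fold change of any member. Gss, glutathione synthetase, was at 46.6, 44.1 and 48.1 CPM in EV cells and 66.6, 61.0 and 64.3 CPM in PPFP cells (log2 fold change 0.47, SE 0.081, adjusted p = 0.0026). Ggt7, another relative of gamma-glutamyltransferase, was at 66.8, 56.3 and 68.9 CPM in EV cells and 51.9, 52.0 and 51.3 CPM in PPFP cells and lower without overlap (log2 fold change -0.31, SE 0.096, adjusted p = 0.034).

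Neither subunit of the enzyme at the rate-limiting step of glutathione synthesis was called. Gclc, the catalytic subunit of glutamate-cysteine ligase, was at 92.6, 87.2 and 99.0 CPM in EV cells and 105, 61.4 and 61.5 CPM in PPFP cells, where replicate 1 was well above replicates 2 and 3 (log2 fold change -0.29, SE 0.21, adjusted p = 0.29). Gclm, the modifier subunit, was at 43.8, 40.3 and 51.6 CPM and 58.3, 40.5 and 39.6 CPM, and the same PPFP library was again the highest of its group (log2 fold change 0.029, SE 0.17, adjusted p = 0.90). Gsr, glutathione reductase, had a log2 fold change of -0.30 (adjusted p = 0.10), with overlapping groups.

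Of the 10 glutathione transferases tested, 4 were more than 2-fold higher in PPFP cells, against 7.27% of all genes. These were Gstm2, a cytosolic transferase of the mu class, and the microsomal transferases Mgst1, Mgst2 and Mgst3, which act in membranes on lipid peroxides and, for Mgst2 and Mgst3, on leukotriene precursors. Gstm2 was at 12.1, 8.05 and 6.66 CPM in EV cells and 87.6, 85.6 and 87.5 CPM in PPFP cells, a 9.73-fold difference (log2 fold change 3.28, SE 0.21, adjusted p = 2.4e-05). Mgst2 was at 1.05, 0.906 and 0.700 CPM in EV cells, from 31, 27 and 21 counts, and at 6.36, 7.99 and 8.78 CPM in PPFP cells (log2 fold change 3.12, SE 0.23, adjusted p = 4.3e-05). None of these values overlapped between the cell lines. Mgst1 was at 300.1, 284 and 318 CPM in EV cells and 819, 678 and 717 CPM in PPFP cells (log2 fold change 1.29, SE 0.098, adjusted p = 5.4e-05). Mgst3 was at 22.6, 20.2 and 22.9 CPM in EV cells and 44.8, 45.7 and 45.4 CPM in PPFP cells (log2 fold change 1.05, SE 0.087, adjusted p = 8.3e-05).

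Of the other transferases tested, those called differed by less than 2-fold. Gsto1, which also reduces dehydroascorbate, was higher with a log2 fold change of 0.35 (adjusted p = 0.021), and Gstt2 of the theta class was higher by 0.51 (adjusted p = 0.036) although 1 PPFP library, at 38.9 CPM, lay just below the highest EV library, at 39.0 CPM. Gstp1, the pi class enzyme, was lower: it was at 116, 104 and 115 CPM in EV cells and 90.3, 89.1 and 96.7 CPM in PPFP cells (log2 fold change -0.28, SE 0.080, adjusted p = 0.025). Gsta4, which acts on 4-hydroxynonenal, Gstm1 and Gstt1 were not called, with log2 fold changes of 0.12, -0.35 and 0.22. Gstk1, the transferase of mitochondria and peroxisomes, was not tested. It gave 15, 9 and 8 counts in EV cells and 0 counts in all 3 libraries of PPFP cells, and was at least 3.06-fold lower in PPFP cells against the floor of 3 counts per library. How reads that match several transferases were assigned is not given in the sources used here, so values of single members of the mu and theta classes carry that uncertainty.

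NRF2 and KEAP1 themselves did not pass the test, and nor did the heme oxygenases Hmox1 and Hmox2 or the quinone reductase Nqo1. The activity of NRF2 was not measured. The log2 fold change was -0.044 for Nfe2l2, the gene of NRF2, 0.11 for Keap1, 0.083 for Nqo1, -0.12 for Hmox1 and 0.081 for Hmox2, and the adjusted p was at least 0.41. All 5 had overlapping groups. EV replicate 2 again differed from the other EV libraries, with 3.35 CPM of Nqo1 against 6.89 and 8.03, and 80.8 CPM of Hmox1 against 54.9 and 39.6. The member of this group that was called was Akr1c19, an aldo-keto reductase, which was at 3.44, 2.58 and 1.43 CPM in EV cells and 8.75, 11.9 and 11.7 CPM in PPFP cells (log2 fold change 2.11, SE 0.30, adjusted p = 0.0010).

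**Figure D2:**
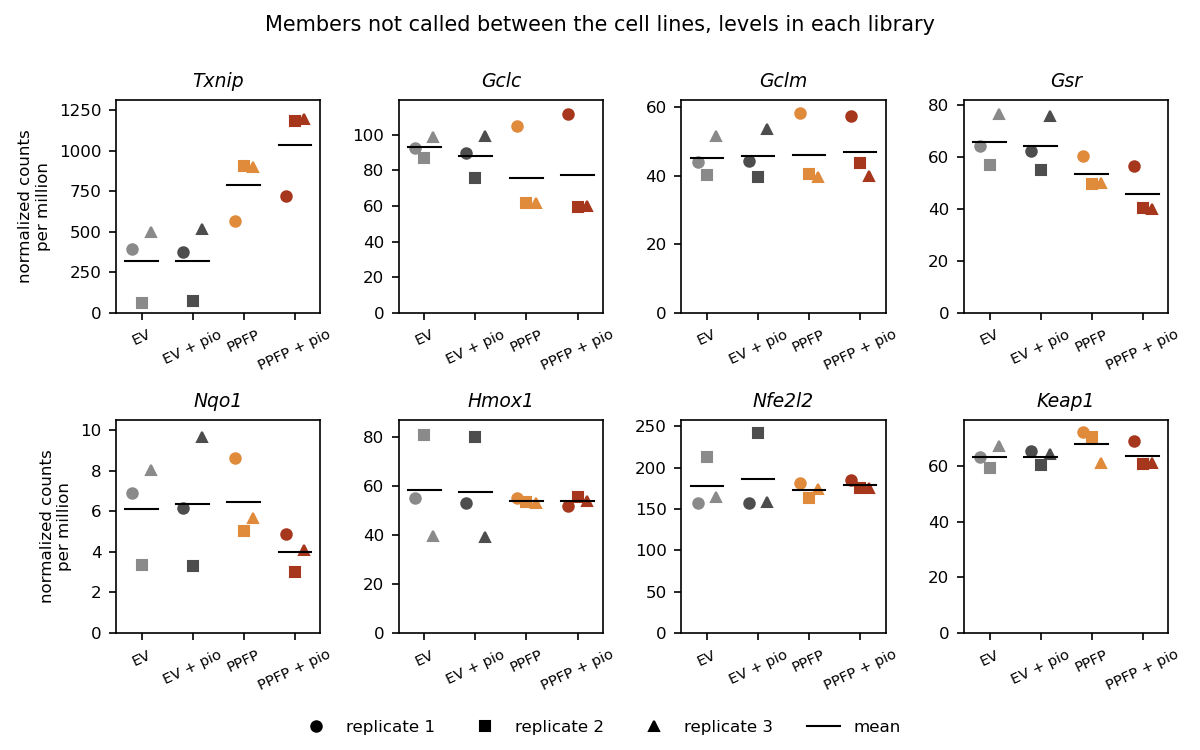
Level of 8 members that were not called between the cell lines, in each of the 12 libraries (vertical axis, normalized CPM), by group (horizontal axis). Symbols mark the replicate and black lines the mean. With and without pioglitazone, EV replicate 2 is the lowest EV library for Txnip and Nqo1 and the highest for Hmox1, and PPFP replicate 1 is the highest PPFP library for Gclc and Gclm.

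Of the 24 calls without pioglitazone, 17 held under every alternative and the other 7 were lost when at least 1 of the 6 libraries was left out. Prdx1 lost its call without 4 of the libraries (log2 fold change 0.37 to 0.55), Srxn1 without 5 (0.23 to 0.32), Gstt2 without 4 (0.40 to 0.52), Gsto1 without 2 (0.28 and 0.37) and Txnrd1 without EV replicate 1 (0.45, adjusted p = 0.053). Ggt7 lost it without 5 of them (-0.30 to -0.25) and Gstp1 without 5 (-0.30 to -0.24). The adjusted p in these fits reached 0.13 for Ggt7, and no called member changed its direction. The replicate block lost Srxn1, Ggt7, Gstp1 and Gstt2 (adjusted p = 0.054, 0.074, 0.062 and 0.052), and library size alone lost Prdx1, Srxn1 and Gstt2 (adjusted p = 0.060, 0.083 and 0.079). The members that were more than 2-fold higher were not among the 7.

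Besides Gpx2, 9 members had the core of the antioxidant response element in the promoter window. RefSeq promoters were found for 37 of the 46 members, Ggt1 included, in 41 windows, and 10 of these windows (24.4%) held the core, against 12.1% of the 33469 promoters in the table. The PPAR response element, searched as AGGTCA repeated in the same direction with 1 base between the repeats, on both strands, was in 0 of the 41 windows and in 0.0538% of all promoters, and with 1 mismatch allowed in 0 and 0.439%. A match describes the letters in the window and not a bound site. The core was present in Gclm, Hmox2, Nfe2l2 and Sod2, none of which were called between the cell lines, and also in Prdx1, Prdx4 and Txnrd1, which were higher, and in Prdx5 and Gstp1, which were lower. The stretches around the core are given for these last 5 so that the called members of both directions can be compared, with the core in capitals and, in each case except Gstp1, on the other strand. Numbered from the start of transcription, the core began at -135 in Prdx1, 20 in Prdx4, -78 in Txnrd1, -1 in Prdx5 and -61 in Gstp1.
Prdx1: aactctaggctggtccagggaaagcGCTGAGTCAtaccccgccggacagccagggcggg
Prdx4: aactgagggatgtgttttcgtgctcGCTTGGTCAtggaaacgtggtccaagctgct
Txnrd1: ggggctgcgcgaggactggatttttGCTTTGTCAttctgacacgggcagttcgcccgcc
Prdx5: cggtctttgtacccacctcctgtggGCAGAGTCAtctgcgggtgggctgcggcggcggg
Gstp1: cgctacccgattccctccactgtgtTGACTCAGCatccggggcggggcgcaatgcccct

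The second question was how the genes compare between the cell lines when both received pioglitazone. The largest differences of the first comparison were present again, Sod3 was now more than 2-fold lower and Cat was now higher, whereas Gpx2 and Akr1c19 were no longer called. Of the 41 members tested, 18 were higher (43.9%), against 26.3% of all genes tested, and 5 lower (12.2%), against 26.4%. Of these, 6 were higher by more than 2-fold, against 9.3% of all genes, and 1 lower, against 10.4%. The median log2 fold change was 0.27 over the members and 0.012 over all genes. The study's own list gave 11 of 21 higher and 3 lower, and the 20 tested members outside it 7 higher and 2 lower. The comparisons without and with pioglitazone used different libraries of the same 2 lines, and libraries with the same replicate number deviated together, so they are not independent.

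Ggt6 was at 1.52, 0.996 and 0.873 CPM in EV cells with pioglitazone and 33.1, 29.8 and 27.1 CPM in PPFP cells with pioglitazone (log2 fold change 4.72, SE 0.21, adjusted p = 5.8e-06). Gstm2 was at 10.1, 5.14 and 5.06 and 77.3, 68.8 and 68.1 CPM (log2 fold change 3.41, SE 0.27, adjusted p = 6.4e-05). Mgst2 was at 0.976, 1.29 and 0.489 and 4.81, 7.61 and 7.78 CPM (log2 fold change 2.88, SE 0.35, adjusted p = 0.00045). In these 3 genes every PPFP library was at least 3 times the highest EV library. Mgst1 was at 285, 295 and 310.0 and 1236, 1055 and 1023 CPM (log2 fold change 1.91, SE 0.10, adjusted p = 1.2e-05). Mgst3 was at 20.9, 18.9 and 22.0 and 54.4, 50.4 and 46.9 CPM (log2 fold change 1.31, SE 0.099, adjusted p = 5.1e-05). Sod1 was at 272, 204 and 341 and 739, 649.5 and 637 CPM (log2 fold change 1.32, SE 0.19, adjusted p = 0.00095). None of the 6 genes had overlapping groups.

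Sod3 was at 949, 1028 and 891 CPM in EV cells and 348, 407 and 393 CPM in PPFP cells, which was the lowest level of the 4 groups (log2 fold change -1.30, SE 0.099, adjusted p = 5.5e-05). Cat was at 336, 339 and 346 CPM in EV cells and 567, 602 and 584 CPM in PPFP cells (log2 fold change 0.79, SE 0.075, adjusted p = 0.00014). Both sets of values were clear of each other. The mitochondrial proteins did not all go 1 way: Prdx3, Txnrd2 and Txn2 were called higher, and Sod2 was not called. The means of Sod2 were 149.6 CPM for the EV group and 140.5 CPM for the PPFP group, with overlapping libraries. Prdx3 was at 293, 300.4 and 258 and 589, 548 and 547 CPM (log2 fold change 1.00, SE 0.083, adjusted p = 7.7e-05). Txnrd2 was at 24.1, 24.0 and 26.3 and 44.9, 46.4 and 44.9 CPM (log2 fold change 0.89, SE 0.082, adjusted p = 0.00013). Txn2 was at 90.8, 102 and 97.2 and 167, 149 and 148 CPM (log2 fold change 0.70, SE 0.079, adjusted p = 0.00034). Gstp1 was at 108, 101 and 113 CPM in EV cells and 69.7, 68.3 and 68.3 CPM in PPFP cells, lower in every PPFP library (log2 fold change -0.63, SE 0.075, adjusted p = 0.00041). Ggt7 was at 71.4, 54.6 and 72.4 and 44.4, 50.3 and 47.6 CPM (log2 fold change -0.47, SE 0.13, adjusted p = 0.021).

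Gpx2 was at 127, 84.2 and 159 CPM in EV cells and 206, 152 and 157 CPM in PPFP cells, and the ranges overlapped (log2 fold change 0.48, SE 0.24, adjusted p = 0.12). Akr1c19 was at 2.41, 2.76 and 1.12 and 2.99, 4.06 and 3.60 CPM and was not called although its groups did not overlap (log2 fold change 0.77, SE 0.32, adjusted p = 0.078). Prdx2 was at 450.4, 379.6 and 449 and 414, 403 and 399.6 CPM (log2 fold change -0.059, adjusted p = 0.63). The remaining calls were smaller, with log2 fold changes of 0.55 for Gpx4, 0.55 for Prdx1, 0.37 for Prdx4, 0.27 for Prdx6, 0.52 for Txnrd1, 0.35 for Gss, 0.48 for Gstt2 and 0.55 for Gsto1, and of -0.36 for Prdx5 and -0.43 for Gstt1. Txnip, at 374, 72.1 and 519 CPM in EV cells and 723, 1181 and 1196 CPM in PPFP cells, was again not called (log2 fold change 1.69, SE 0.63, adjusted p = 0.057). Gstk1 had 0 counts in all 3 PPFP libraries with pioglitazone and 9, 5 and 9 counts in EV cells, which made it at least 2.21-fold lower. Gclc, Gclm, Gsr, Srxn1, Sod2, Nfe2l2, Keap1, Nqo1, Hmox1 and Hmox2 were not called, and of these Gsr had the smallest adjusted p (log2 fold change -0.49, adjusted p = 0.051).

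Of the 23 calls with pioglitazone, 16 held under every alternative. Prdx6 kept its call only with DESeq2 and with all 12 libraries in 1 fit, and lost it in every other alternative, with log2 fold changes of 0.13 to 0.29 and an adjusted p of up to 0.23. Prdx1 lost its call without 5 of 6 (0.39 to 0.59), Gstt2 without 4 (0.38 to 0.41), and Txnrd1 without EV replicate 1 or 2 (0.50 and 0.44). With replicates 2 and 3 of PPFP cells as 1 sample, Prdx1, Prdx6 and Gstt2 lost their calls (adjusted p = 0.069, 0.095 and 0.11). With the replicate block, Prdx6, Gstt1 and Gstt2 lost their calls (adjusted p = 0.081, 0.058 and 0.071) and Txnip was called higher (adjusted p = 0.038). Ggt7 lost its call without replicate 1 of EV cells or of PPFP cells (-0.42 and -0.41), Gstt1 without EV replicate 1 (-0.37, adjusted p = 0.063) and Gss with scaling by library size alone (0.21, adjusted p = 0.056). Without EV replicate 3, in contrast, Gpx2 was called (0.70, adjusted p = 0.031), and Akr1c19 was called by edgeR's exact test (adjusted p = 0.042).

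**Figure D3:**
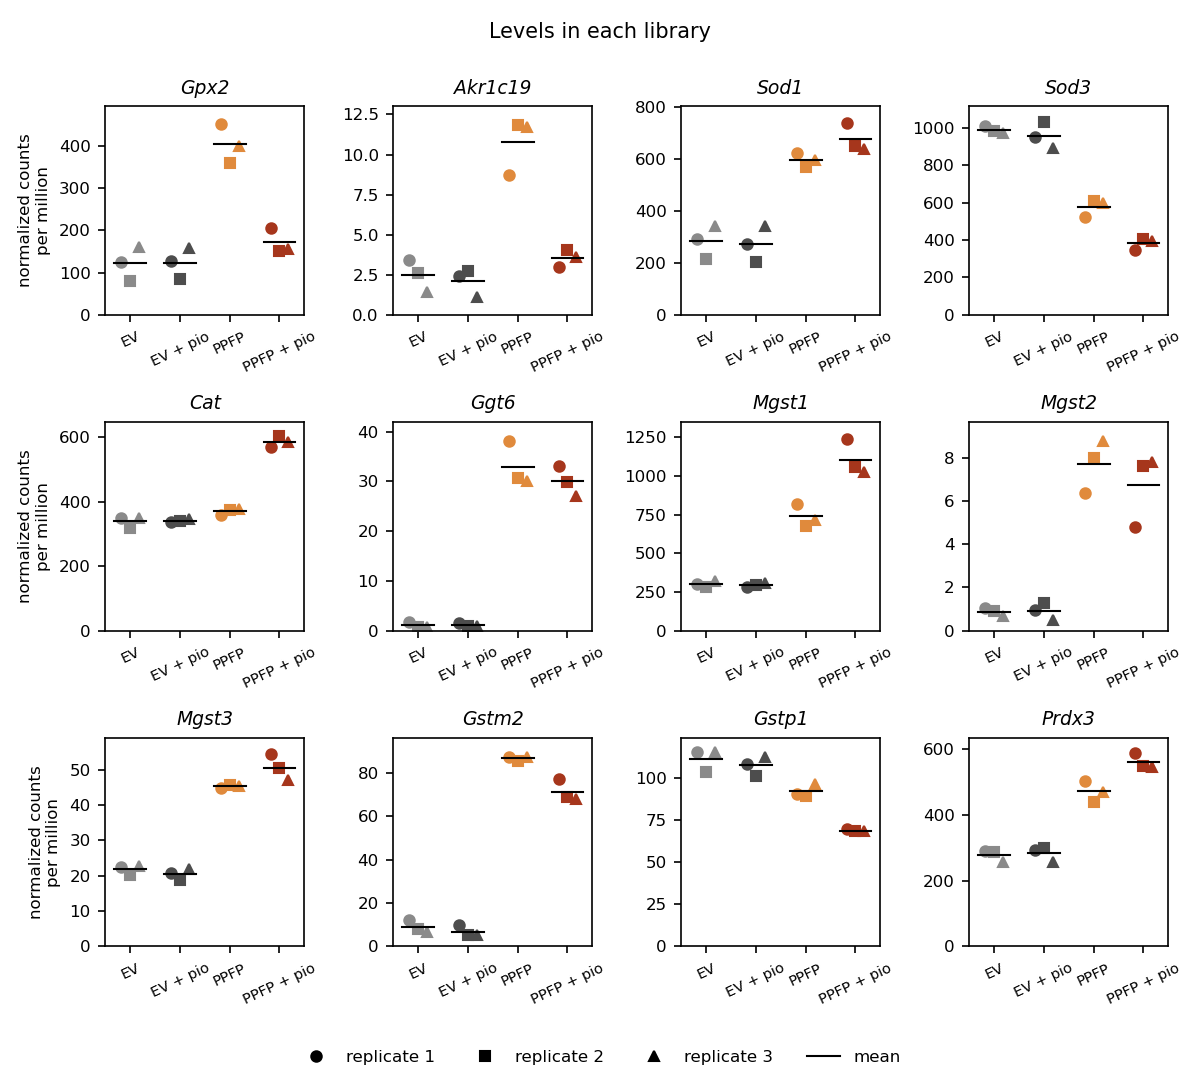
Level of 12 members in each of the 12 libraries (vertical axis, normalized CPM, from 0), by group (horizontal axis, pio for pioglitazone). Symbols mark the replicate and black lines the mean. Gpx2 and Akr1c19 are highest in PPFP cells without pioglitazone, whereas Cat and Mgst1 are highest and Sod3 and Gstp1 lowest in PPFP cells with pioglitazone.

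The third question was what pioglitazone does within PPFP cells. These values share the libraries of PPFP cells without pioglitazone with the first comparison, so the 2 are not independent and are only set side by side. Catalase, Mgst1 and Prdx3 rose with pioglitazone, and Akr1c19, Gpx2, Gstt1, Sod3, Gstp1, Gsta4, Gstm2 and Prdx2 fell. Of the 41 members tested, 3 were higher (7.32%), against 7.63% of all genes tested, and 8 lower (19.5%), against 7.13%. With a 2-fold change required, 0 were higher, against 1.11% of all genes, and 2 lower, against 1.31%. The median log2 fold change was -0.017 over the members and 0.012 over all genes. In the study's own list 2 of 21 were higher and 6 lower, and outside it 1 of 20 was higher and 2 lower. Of the 8 thyroid markers 5 were lower with pioglitazone, against 7.13% of all genes, and 8 with the replicate block, against 23.9%. Of the 3 adipocyte markers tested 2 were higher and 1 lower with or without the block. Their part in the members' changes was not tested.

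Libraries with the same number deviated together in PPFP cells, and with the replicate as a block 8 members were higher, against 27.7% of all genes, and 14 lower, against 23.9%. The additional calls under the block were Txnrd2, Txnip, Sod1, Mgst3 and Gsto1, which were higher with log2 fold changes of 0.17 to 0.40, and Gpx4, Gpx8, Prdx6, Srxn1, Gsr and Nqo1, which were lower with log2 fold changes of -0.68 to -0.15.

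**Figure D4:**
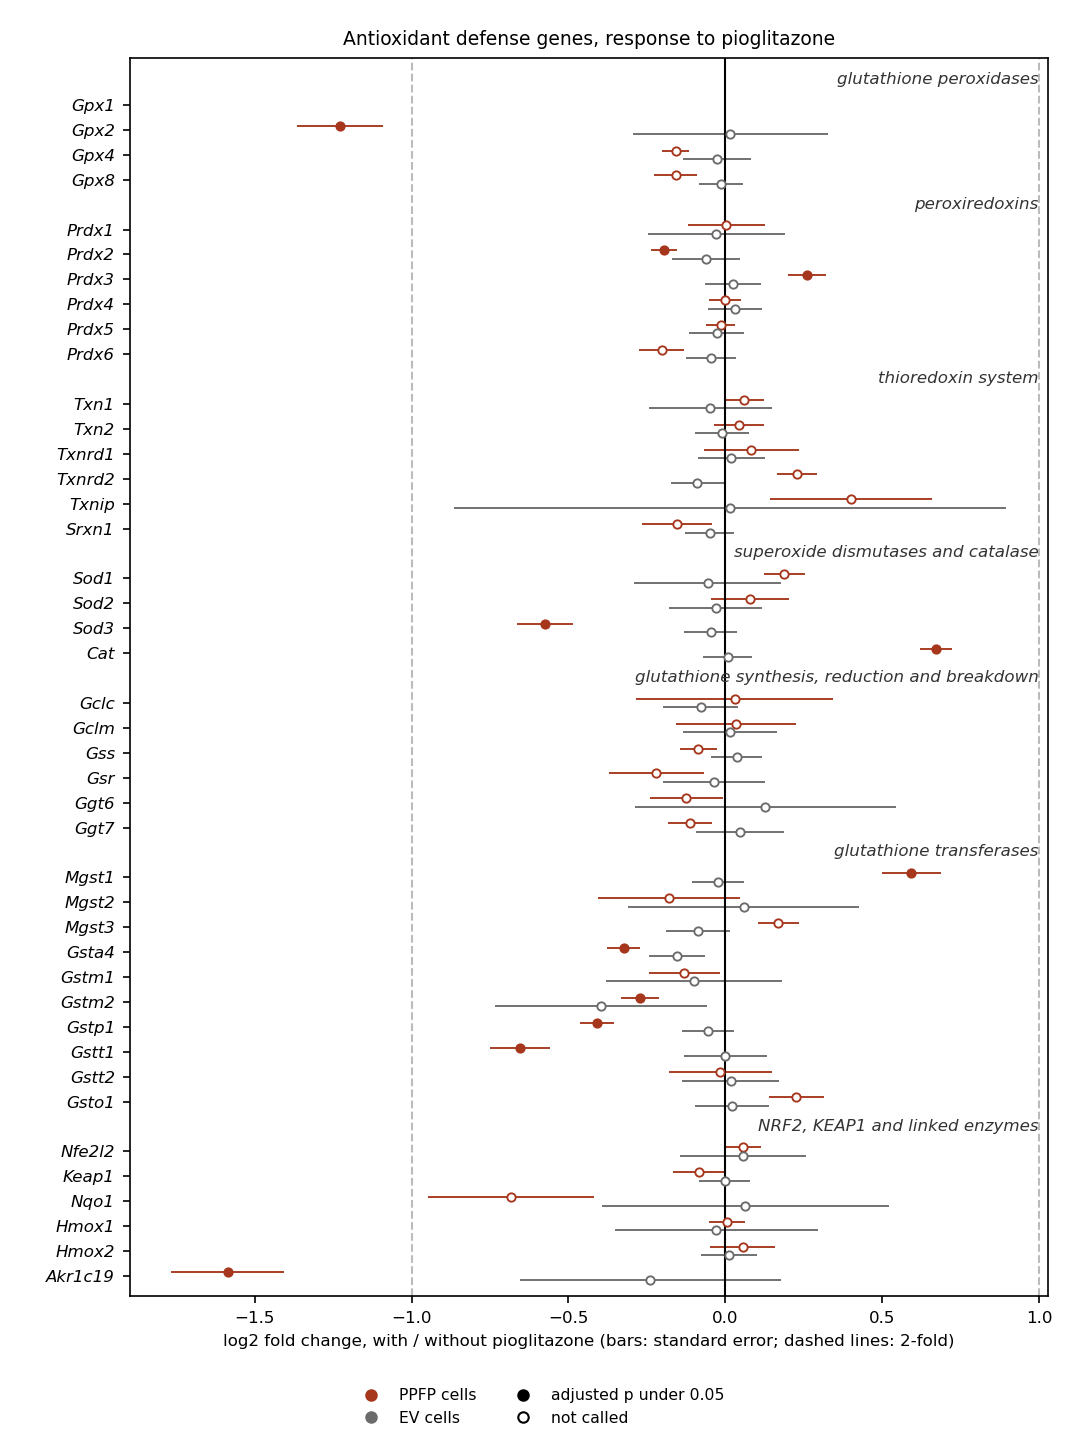
Log2 fold change of each member with versus without pioglitazone (horizontal axis), by role, in PPFP cells (red) and EV cells (grey). Bars are standard errors, filled points had an adjusted p under 0.05 without the replicate block and dashed lines mark a 2-fold change. Filled points occur in PPFP cells alone, with Akr1c19 and Gpx2 beyond 2-fold, and Gpx1 has no point because it was not tested.

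Gpx2 fell from 452, 359 and 401 CPM to 206, 152 and 157 CPM in the same order of replicates, with no overlap (log2 fold change -1.23, SE 0.14, adjusted p = 0.0026). Akr1c19 fell from 8.75, 11.9 and 11.7 CPM to 2.99, 4.06 and 3.60 CPM (log2 fold change -1.59, SE 0.18, adjusted p = 0.0029). Both genes were called higher in the first comparison, and with pioglitazone they stood at means of 171 ± 30.4 and 3.55 ± 0.539 CPM, beside 123 ± 37.6 and 2.10 ± 0.867 CPM in EV cells with pioglitazone (SD, n = 3).

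Cat rose from 359, 374 and 377 to 567, 602 and 584 CPM, which was 1.59-fold (log2 fold change 0.67, SE 0.051, adjusted p = 0.00075). Mgst1, already higher in PPFP cells, rose further, from 819, 678 and 717 to 1236, 1055 and 1023 CPM (log2 fold change 0.59, SE 0.094, adjusted p = 0.0093). Prdx3 rose from 504, 441 and 471 to 589, 548 and 547 CPM (log2 fold change 0.26, SE 0.061, adjusted p = 0.036). In each of the 3 genes all libraries with pioglitazone lay above all libraries without it. Txnrd2 was at 36.8, 40.8 and 39.5 CPM without and 44.9, 46.4 and 44.9 CPM with pioglitazone, which did not pass the edgeR test without the block (log2 fold change 0.23, SE 0.064, adjusted p = 0.062) and passed it with the block (adjusted p = 0.00037). DESeq2 without a block also called it higher (log2 fold change 0.22, adjusted p = 0.033).

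Sod3, already lower in PPFP cells, fell further, from 524, 606 and 595 to 348, 407 and 393 CPM (log2 fold change -0.58, SE 0.090, adjusted p = 0.0088). Gstt1 fell from 28.2, 31.2 and 30.9 to 16.9, 20.1 and 19.9 CPM (log2 fold change -0.65, SE 0.096, adjusted p = 0.0071). Gstp1 fell from 90.3, 89.1 and 96.7 to 69.7, 68.3 and 68.3 CPM (log2 fold change -0.41, SE 0.055, adjusted p = 0.0051). For Gstt1, which had not been called between the cell lines without pioglitazone, the PPFP libraries with pioglitazone all lay below the EV libraries with pioglitazone. Smaller decreases were seen for Gsta4 (log2 fold change -0.32, SE 0.053, adjusted p = 0.0100), Gstm2 (log2 fold change -0.27, SE 0.060, adjusted p = 0.029) and Prdx2 (log2 fold change -0.20, SE 0.041, adjusted p = 0.025), and the 3 genes had no overlap between their groups. Without the replicate block, Ggt7 had the smallest p of the glutathione synthesis and breakdown genes and was not called (log2 fold change -0.11, SE 0.069, adjusted p = 0.35). With the block Gsr of this group was called lower.

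Ggt6, Mgst2, Txn2 and Sod1, all called higher between the cell lines, had log2 fold changes of -0.12, -0.18, 0.042 and 0.19 with pioglitazone, none of which passed the test without the block. NRF2 and KEAP1 had log2 fold changes of 0.057 and -0.083, and Hmox1 one of 0.0052. Nqo1 went from 8.64, 5.04 and 5.65 to 4.88, 2.98 and 4.11 CPM and was not called without the block (log2 fold change -0.68, SE 0.26, adjusted p = 0.15). The remaining uncalled members without the block lay between the values of Gsr (-0.22) and Txnip (0.40).

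Of the 11 calls in PPFP cells, 6 held under every alternative, those of Gpx2, Akr1c19, Cat, Sod3, Gstp1 and Gstt1. Prdx3 lost its call without 5 of the 6 libraries (log2 fold change 0.20 to 0.27), Gstm2 without 5 (-0.30 to -0.25), Prdx2 without 4 (-0.23 to -0.19) and Gsta4 without 3 (-0.32 to -0.31). Mgst1 lost it without replicate 2 or 3 of PPFP cells without pioglitazone (0.52 and 0.57, adjusted p = 0.051 and 0.054). With all 12 libraries in 1 fit, Gstm2, Prdx2 and Prdx3 lost their calls (adjusted p = 0.55, 0.15 and 0.083), and Prdx2 also lost it by edgeR's exact test (adjusted p = 0.092). With replicates 2 and 3 of PPFP cells with pioglitazone as 1 sample, Prdx3, Gstm2, Prdx2 and Gsta4 lost their calls (adjusted p = 0.11, 0.13, 0.12 and 0.060).

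In EV cells, which have little Pparg, pioglitazone changed no member past the threshold. By edgeR's quasi-likelihood test 0 of the 41 members tested were higher, against 0% of all genes tested, and 0 were lower, against 0%. No member had an unadjusted p under 0.05 either, the smallest being 0.13, and 16 of the 10146 genes tested did, or 605 with the replicate block. DESeq2 and edgeR's exact test called 0 genes. With the replicate block 0 members were called, against 0.00986% of all genes higher and 0% lower. The median log2 fold change of the members was -0.023, and the values ranged from -0.40 for Gstm2, whose standard error was 0.34, to 0.13 for Ggt6. Cat, at 348, 317 and 349.8 CPM without and 336, 339 and 346 CPM with pioglitazone, had a log2 fold change of 0.0079 with a standard error of 0.078, and Sod3 one of -0.047 with a standard error of 0.085. Libraries of the same replicate number resembled each other closely, as Txnip shows, at 60.6 and 72.1 CPM in EV replicate 2 with vehicle and with pioglitazone and above 370 CPM in the others.

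The last question was whether the response to pioglitazone differed between the cell lines, tested as an interaction over all 12 libraries. Cat and Mgst1 had a more positive response in PPFP cells and Sod3 a more negative one. These were 2 of 42 members, against 1.38% of all genes tested, and 1 of 42, against 1.26%. The difference of the log2 fold changes was 0.65 for Cat (SE 0.087, adjusted p = 0.0028), 0.60 for Mgst1 (SE 0.13, adjusted p = 0.039) and -0.54 for Sod3 (SE 0.12, adjusted p = 0.040), each with the same sign in 3 of 3 replicate numbers. Without the block, Mgst1 lost its call when 11 of the 12 libraries were left out in turn (0.52 to 0.66) and Sod3 with 10 of them (-0.59 to -0.48), whereas Cat kept it. With the replicate block all 3 were called (adjusted p = 3.7e-07 for Cat, 1.7e-06 for Mgst1 and 7.0e-06 for Sod3). Gpx2 and Akr1c19 had differences of -1.25 and -1.36, with standard errors of 0.37 and 0.48, and were not called (adjusted p = 0.11 and 0.19). With the replicate as a block within each cell line, 8 members had a more positive response in PPFP cells, against 17.2% of all genes, and 12 a more negative one, against 17.1%. Gpx2 and Akr1c19 were among the 12 (adjusted p = 4.9e-09 and 9.7e-05).

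Other genes of the pathway were taken from 7 lists of 83 genes chosen by function, of which 77 were in the table and 73 were tested between the cell lines without pioglitazone. Of the 73, 21 were higher (28.8%), against 22% of all genes tested, and 8 lower (10.96%), against 23.1%, with a median log2 fold change of 0.15. The lists are small, and their counts below are read against the same shares of all genes. NADPH, on which glutathione and thioredoxin reductases run, had 5 of its 7 tested supply genes higher and 1 lower, with 1.02 (SE 0.18) for malic enzyme Me1. Among 9 genes of cystine uptake and glutathione precursors 3 were higher and 1 lower, with -6.17 (SE 0.37) for Dpep1 and 2.26 (SE 0.51) for Anpep, a pair of peptidases that split the products of glutathione breakdown. Dpep1 had only 6, 2 and 3 counts in PPFP cells and Anpep 26, 17 and 6 in EV cells, so the sizes of these changes are uncertain. PPFP replicate 1 lay far below the other PPFP libraries for the cystine transporter Slc7a11 (2.32 against 80.9 and 81.7 CPM) and for Chac1, which degrades glutathione (2.21 against 50.3 and 60.8 CPM). The EV libraries also varied widely, at 13.5, 53.8 and 3.86 CPM for Slc7a11 and 35.9, 85.8 and 25.5 CPM for Chac1. Neither gene was called. With the replicate block 3 of the 9 were higher and 3 lower, where the block called 4050 of 10264 genes in either direction. The added calls were the amino acid transporter genes Slc3a2 (log2 fold change -0.75) and Slc1a4 (-1.01). The replicate numbers did not pair the libraries between the cell lines (correlations of -0.40 to 0.42), which limits these blocked calls. Of 11 glutaredoxins and thioredoxin-like genes 3 were higher and 1 lower, with 1.53 (SE 0.19) for glutaredoxin Glrx and -1.03 (SE 0.10) for Txnrd3. Of 18 other NRF2 target genes and partners 2 were higher and 1 lower, with 0.78 (SE 0.098) for Sqstm1 and 0.60 (SE 0.10) for biliverdin reductase Blvra.

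Of 9 further glutathione transferases 3 were higher and 2 lower, with 5.04 (SE 0.24) for Hpgds, the prostaglandin D synthase of this family, and -3.93 (SE 0.45) for Gstt3. Of 9 genes that repair oxidised protein or remove carbonyls 4 were higher and 1 lower, with 1.21 (SE 0.17) for the methionine sulfoxide reductase Msra and 0.93 (SE 0.13) for Hagh. Of 10 selenoprotein genes 1 was higher and 1 lower, with 5.11 (SE 0.28) for the selenium carrier Sepp1 and -0.32 (SE 0.089) for Selk. Between the cell lines with pioglitazone 29 of 73 were higher (39.7%), against 26.3% of all genes, and 11 lower (15.1%), against 26.4%. In PPFP cells with versus without pioglitazone 10 of 71 were higher (14.1%), against 7.63%, and 8 lower (11.3%), against 7.13%. With the replicate block these were 28 (39.4%), against 27.7%, and 21 (29.6%), against 23.9%.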

How the data were processed

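RNA-seq of 12 libraries was analysed, 3 for each of 4 groups taken from the labels. Per the study's methods, libraries from total RNA (Illumina TruSeq RNA) were sequenced as paired-end reads, and per the submitters' processing notes CASAVA 1.8.2, TopHat2 2.0.11, HTSeq 0.6.1p1 and edgeR 3.2.4 were used with the rat build rn4. The deposited values are the authors' raw read counts per gene in 1 table, with no normalization. How strand and reads with several matches were treated is not given in the sources used here.

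All genes passing filterByExpr were fitted with edgeR 4.0.16 (R 4.3.3) by the quasi-likelihood test after TMM scaling, on the 6 libraries of the groups compared, or on all 12 for the interaction. P-values were adjusted by Benjamini-Hochberg over all genes tested, and an adjusted p under 0.05 was a call. Standard errors are the log2 fold change divided by the root of F. Libraries held 23724703 to 35240176 counts, and with 3 libraries per group the spread between them, more than counting error, limits the precision. The fits were tested on simulated counts with known changes.

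The labels number the replicates, and the study's methods state independent experiments and that the samples of an experiment shared sequencing lanes, so p-values measure the spread between experiments on 1 line per construct. Deviations from the group means of libraries with the same number correlated at 0.59 to 0.85 between the PPFP groups and at 0.65 to 0.88 between the EV groups, so the numbers pair the libraries of each line. A blocked fit on the replicate number was added. Whether the numbers name the experiments is not given in the sources used here, so the pairing rests on the data.

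The members, the lists of other genes and the tests were chosen with earlier results of these data known. Values in every library and full statistics were given for members called with a fold change above 2 in any pairwise comparison, members called in the interaction, and, in each of 7 role groups, the member with the smallest p between the cell lines without pioglitazone and the member with the smallest p with versus without pioglitazone in PPFP cells. Members outside this rule whose libraries are also given (Gpx3, Gpx4, Prdx5, Txnip, Gclc, Gclm, Gss, Gstk1, Gstt1, Gstt2, Nqo1 and Hmox1, and Gsr, Nfe2l2 and Keap1 in a plot) were chosen after their values were seen. Among other pathway genes, the 2 called genes with the largest change per list were named, except 1 that is not reported here. Promoters came from RefSeq (GRCr8).

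Alternatives were edgeR's exact test, DESeq2 1.42.0, RLE scaling, library size alone, no filter, at least 10 counts in every library, all 12 libraries in 1 fit, the replicate block and leaving out each library. Counting replicates 2 and 3 of PPFP cells with pioglitazone as 1 sample was chosen after seeing the data. The deposited lists of PPFP binding peaks, with the authors' fold, p-value and q-value columns, were not used here.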

Additional observations from a re-analysis of the deposited data

Results flagged for a closer look

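The response to pioglitazone differed between the cell lines, by the interaction test over the 12 libraries without the replicate block, for 3 members. For Cat the log2 change in PPFP cells minus that in EV cells was 0.65, from changes of 0.67 in PPFP cells and 0.0079 in EV cells. For Mgst1 the difference was 0.60, from changes of 0.59 and -0.023. For Sod3 it was -0.54, from changes of -0.58 and -0.047. Each difference had the same sign in 3 of 3 replicate numbers. Mgst1 lost its call when 11 of the 12 libraries were left out in turn and Sod3 with 10 of them. Both also lost it with replicates 2 and 3 of PPFP cells with pioglitazone as 1 sample, whereas Cat kept it throughout. With the replicate block 8 members had a more positive response in PPFP cells, against 17.2% of all genes, and 12 a more negative one, against 17.1%. No group had the 4 libraries needed to flag a single library as apart from the others of its group.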

How the results depend on the processing

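No called member changed its direction under any alternative run. The alternatives were tallied for the members called in a comparison and, in the first 3 comparisons, also for the members given with full statistics. Of these 1081 gene values 951 kept their direction and side of the threshold, 119 lost a call, 6 gained one and 5 changed sign. Calls gained by other members, such as those with the replicate block, are outside this tally. The 5 were uncalled: Prdx2 between the cell lines without pioglitazone with library size alone (-0.0073), and in PPFP cells with versus without pioglitazone Txn2 with library size alone (-0.0051) and without replicate 1 with or replicate 2 without pioglitazone (-0.019 and -0.028, in a range of -0.028 to 0.10 over the libraries left out), and Mgst2 without replicate 1 with pioglitazone (0.0032, in a range of -0.32 to 0.0032). Leaving out single libraries gave 16 to 18 members higher and 2 to 5 lower between the cell lines without pioglitazone, 15 to 18 and 3 to 7 with it, 1 to 3 and 5 to 10 for pioglitazone in PPFP cells, 0 and 0 in EV cells, and 1 to 2 more positive and 0 to 1 more negative in the interaction. Between the cell lines the numbers did not pair the libraries (correlations of -0.40 to 0.42 without and -0.48 to 0.33 with pioglitazone), and the replicate block gave 18 higher and 2 lower without pioglitazone and 17 and 4 with it. Over all genes the block called 4050 of 10264 without and 4545 of 10291 with pioglitazone, in either direction. Within PPFP cells the block gave 8 higher and 14 lower, in the interaction 8 more positive and 12 more negative, and in EV cells it changed no member's call. For the interaction, the count of more positive members was 1 with no filter, and the count of more negative members was 4 with DESeq2 and 0 with library size alone. Counting replicates 2 and 3 of PPFP cells with pioglitazone as 1 sample was an alternative chosen after seeing the data. With it Prdx3, Gstm2, Prdx2 and Gsta4 lost their calls for pioglitazone in PPFP cells, and Mgst1 and Sod3 lost theirs in the interaction. The cause of these shifts was not tested.

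Scaling by library size alone moved the median log2 fold change of all genes by -0.082 between the cell lines without pioglitazone and by -0.14 with it. The share of higher calls among all genes went from 48.7% to 39.2% (1884 higher, 2920 lower) without pioglitazone and from 49.9% to 36.6% (2048 higher, 3543 lower) with it. In PPFP cells with versus without pioglitazone it went from 51.7% to 41.2% (609 higher, 868 lower). Genes called over the whole table numbered 1486 for pioglitazone in PPFP cells and 5198 with the replicate block, and 277 and 3594 for the interaction. The exact test and the fit of all 12 libraries do not apply to the interaction. The alternatives for binding peaks near members were not run because the sources used here held no gene annotation of build rn4. Gpx3, Gpx7 and Gstk1 were at or near the limit of detection, so changes in them beyond the bounds given were not detectable at this depth.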
